A study of Mus musculus with 72 samples.

Results

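The genes described here are 33 genes of hepatic stellate cells and of the extracellular matrix, followed in mouse liver after a high-fat diet (HFD). They were chosen by name, from knowledge of what they encode, and a gene counted as measured where the array had a probe set annotated to that symbol alone. By this rule 32 of the 33 were measured, each by 1 probe set, among 19938 genes in all. The probe set rule left Fbn1, which encodes the microfibril protein fibrillin 1, not analysed here. The livers came from singly housed, random-fed wild-type males of 4 inbred strains: 129P2/OlaHsd (129 below), C57BL/6J (B6J), C57BL/6NTac (B6N) and C3HeB/FeJ (C3H). Livers after 21 days of HFD numbered 7 each for 129 and B6J and 8 each for B6N and C3H, all from mice 17 weeks old. Control livers numbered 18 for C3H and 8 for each other strain. The treatment label of the controls is "none", while the protocol text names a low-fat diet of up to the same length. Controls were 17 weeks old in 129 and labelled as 15 to 17 weeks in the other strains, so a small age gap and the diet cannot be told apart there. No label says which mice shared a litter, cage or day, and p-values therefore measure the spread between these samples.

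Hepatic stellate cells lie between the sinusoidal endothelium and the hepatocytes and store vitamin A as retinyl esters, which the enzyme LRAT makes. When the liver is injured they can turn into contractile myofibroblasts that express smooth muscle actin and secrete fibrillar collagen, a change driven by TGF-beta and PDGF. The matrix they add to is remodelled by metalloproteinases and their tissue inhibitors. Most of these genes are not limited to the stellate cell: Vim is made by macrophages and endothelium too, Tgfb1 by macrophages, and Fn1 in large amounts by hepatocytes. In bulk liver RNA, fewer cells of a type and less RNA per cell cannot be told apart.

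Upstream sequence is given for 4 of these genes, Vim and Tgfb1 because they were the members that passed the diet test, and Bgn and Reln because they varied together between livers. Each is the stretch of 250 bases before the annotated transcription start, from RefSeq on GRCm38.p6, read 5′ to 3′ on the gene's strand. Of the 33 genes, 21 had an entry there. Capitals mark matches, on either strand, to the GC box GGGCGG, the CCAAT box CCAAT, the TATA box TATAAA or the AP-1 site TGANTCA. Vim lies on chromosome 2 and its window is chr2:13574061-13574310 on the plus strand. The Tgfb1 window is chr7:25686752-25687001 on the plus strand. Bgn is on the X chromosome, with the window chrX:73483351-73483600 on the plus strand, and Reln is on chromosome 5, with the window chr5:22344706-22344955 on the minus strand.
Vim: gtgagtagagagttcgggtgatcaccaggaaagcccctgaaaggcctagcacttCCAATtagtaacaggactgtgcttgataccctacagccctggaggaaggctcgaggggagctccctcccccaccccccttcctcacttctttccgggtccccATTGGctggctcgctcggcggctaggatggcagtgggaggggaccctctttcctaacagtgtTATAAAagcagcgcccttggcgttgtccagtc
Tgfb1: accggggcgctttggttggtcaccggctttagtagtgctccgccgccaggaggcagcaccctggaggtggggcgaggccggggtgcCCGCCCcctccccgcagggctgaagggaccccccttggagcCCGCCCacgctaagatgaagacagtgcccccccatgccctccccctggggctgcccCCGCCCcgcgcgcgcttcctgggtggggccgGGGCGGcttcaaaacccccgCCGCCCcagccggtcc
Bgn: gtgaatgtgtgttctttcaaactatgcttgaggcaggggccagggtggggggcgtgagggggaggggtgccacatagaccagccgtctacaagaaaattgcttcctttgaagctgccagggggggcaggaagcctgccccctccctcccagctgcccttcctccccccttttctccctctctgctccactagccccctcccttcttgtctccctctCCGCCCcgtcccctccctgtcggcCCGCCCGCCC
Reln: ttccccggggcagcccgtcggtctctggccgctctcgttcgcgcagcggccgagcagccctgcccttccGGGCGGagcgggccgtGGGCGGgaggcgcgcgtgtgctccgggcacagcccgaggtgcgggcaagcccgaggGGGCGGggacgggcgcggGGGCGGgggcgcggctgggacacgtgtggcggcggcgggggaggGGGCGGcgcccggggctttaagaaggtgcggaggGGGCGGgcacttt
The Vim window held 1 TATA box and 2 CCAAT boxes and no GC box. The Tgfb1 window held 5 GC boxes, that of Reln 6 and that of Bgn 3, the last 2 of which overlap, and these 3 windows held none of the other motifs. GC content was 58.4% for Vim, 64.4% for Bgn and 75.2% for Tgfb1, with Reln higher still, against a median of 52.0% over 27025 genes with 1 window each. A GC box was present in 12 of the 21 members' windows (57.1%) and in 32.9% of all windows. A CCAAT box was present in 7 (33.3%, against 34.5%), a TATA box in 3 (14.3%, against 3504 of the 27025 windows) and an AP-1 site in 2 (9.52%, against 6.87%). For 7 of the 21 members, Ecm1 among them, the window lay inside the gene's own annotated span; over the other 14 the counts were 9, 6, 2 and 1 in the same order. These are matches of letters in a fixed window and say nothing about binding.

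The deposited values are log2 expression values per probe set. Array medians fell into 3 ranges: 129 arrays lay at 6.46 to 6.65, those of both B6 substrains at 4.51 to 4.67, and C3H arrays at 3.10 to 3.28. Therefore the table was read as 3 separately normalised sets and levels were compared only between B6N and B6J. Control replicate 6 of 129 stood apart: it held 69.2% of the leading component of residual variation in its set. In C3H the array farthest along that component was HFD replicate 6, with 20.7%. Both are kept in the values below. Without them, a choice made after seeing the data, 5 of the 32 diet differences in 129 changed sign (Col1a2, Col3a1, Col5a2, Ecm1 and Loxl1), as did 9 in C3H (Acta2, Col1a1, Col1a2, Ecm1, Loxl1, Lrat, Pdgfrb, Sparc and Vim), none of them past the test with or without them. The difference of Fn1 in 129 went from 0.14 to 0.01, that of Ecm1 from 0.12 to -0.02 and that of Col3a1 from -0.05 to 0.03. Stellate cell markers were present: Lrat, Reln, Hgf, Ecm1, Colec11 and Hand2 were above the array median on 72 of 72 arrays, Lhx2 on all but 1 and Des on all but 8. The mean value of Lrat was 2.79 log2 units above the array median in 129, 2.04 in B6 and 1.37 in C3H. The least bright members were Col5a2, Lox, Thbs1 and Timp1, whose means were below the array median in all 3 sets, and Loxl1, which was below it in C3H. Without detection calls, such levels cannot be told from background, and a small difference in these genes would not have been detectable.

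Most of the module stayed near its control level on HFD. Averaged over the 4 strains with equal weight, 2 of 32 members passed limma's moderated test at an adjusted p under 0.05 over all genes, Vim and Tgfb1, both higher on HFD; 3.16% of the 19938 genes passed in either direction and 2.02% as higher. Those 2 (6.25%) were also the members with an unadjusted p under 0.05, beside 11.1% of all genes. The mean effects of the 32 members ran from -0.09 to 0.19 on the log2 scale, with a median of 0.005 beside 0.002 for all genes, and 16 of 32 were above 0. All 32 members had a 95% interval for the mean effect that lay within a 1.5-fold change in either direction. The interval of 19741 of the 19938 genes (99.0%) did so too. This therefore describes the precision of the array values and sets the members apart from nothing. For Col5a2, Lox, Thbs1 and Timp1, dim in every set, and Loxl1, dim in C3H, a narrow interval excludes no change in transcript level.

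Within single strains no member passed. In 129, limma called 0 of 32 members (2 at an unadjusted p under 0.05, both higher), with 0.577% of all genes called. In B6J it called 0 (0 at an unadjusted p under 0.05), with 0.296% called. In B6N it called 0 (2 at an unadjusted p under 0.05, both higher), with 0.918% called, and in C3H 0 (0 at an unadjusted p under 0.05), with 0.853% called. At an unadjusted p under 0.05 the share of all genes was 5.48% for 129, 5.78% for B6J, 5.68% for B6N and 8.24% for C3H, so the members' counts of 0 to 2 of 32 (up to 6.25%) lay near or below it. The median member effect was 0.098 for 129, 0.011 for B6J, 0.011 for B6N and -0.008 for C3H, beside medians over all genes of 0.003, 0.005, -0.003 and 0.009; without the 2 arrays that stood apart it was 0.046 for 129 and 0.010 for C3H. The 95% interval stayed within a 1.5-fold change for 26 members with 129, 29 with B6J, 29 with B6N and 31 with C3H. These are 81.2%, 90.6%, 90.6% and 96.9% of the members, beside 95.1%, 95.3%, 95.8% and 97.5% of all genes. The limit given above for the dim members holds here too. Fn1 was the member outside that bound in every strain, and Acta2 and Hgf were outside it in 129 and B6J. A positive sign in all 4 strains was seen for Fn1, Reln, Mmp2, Vim and Tgfb1, and a negative sign in all 4 for Col4a1 and Pdgfrb; these 7 are 21.9% of the members, beside 19.1% of all genes with 1 sign in all 4 strains. Without the 2 arrays, Vim and Pdgfrb left these sets.

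**Figure D1:**
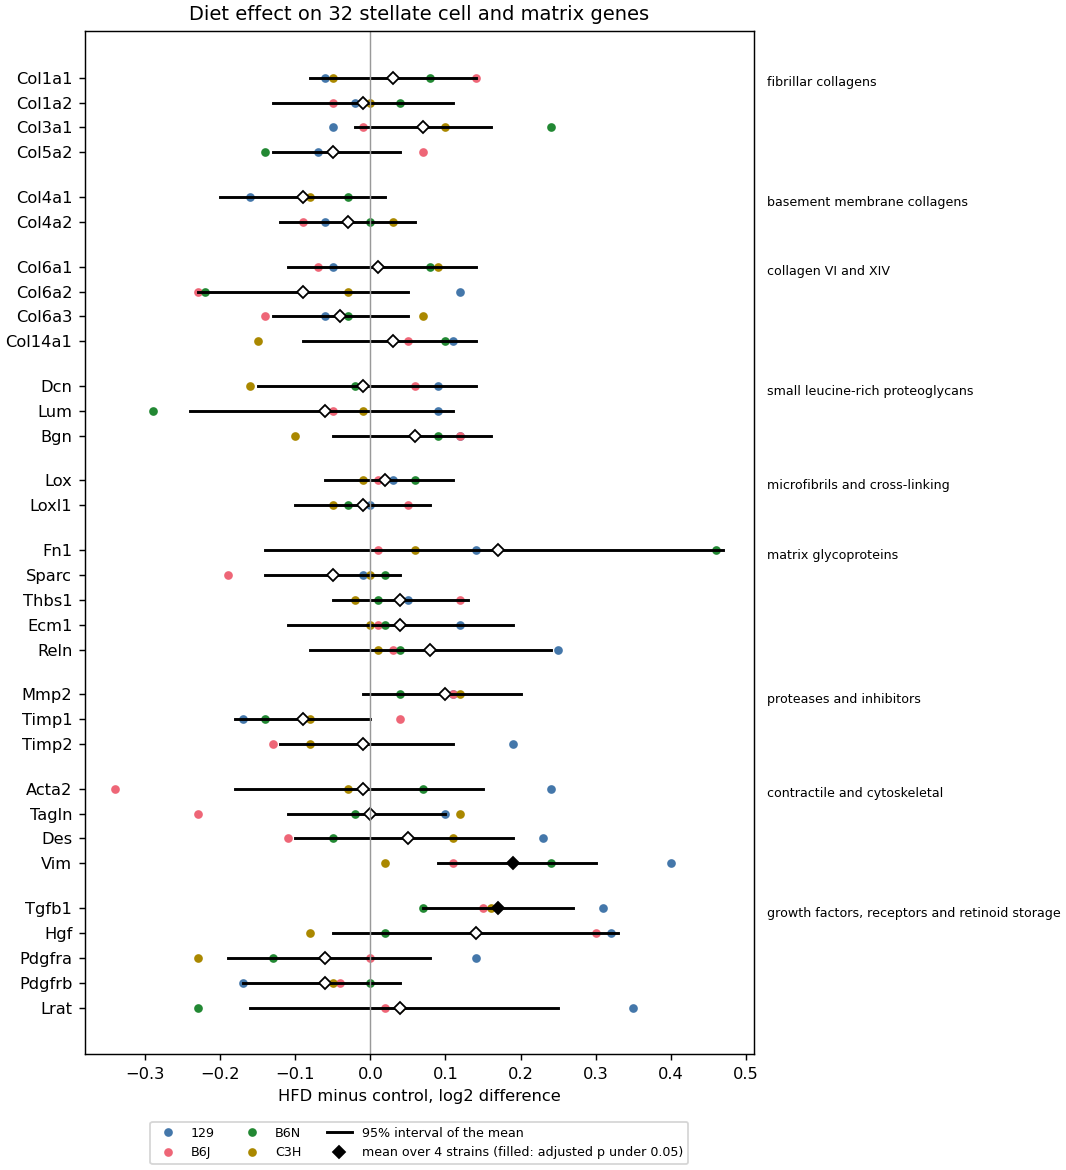
Difference of HFD minus control on the log2 scale (x axis) for the 32 measured genes (rows, grouped by role): coloured points are the 4 strains, diamonds the mean over strains and black lines its 95% interval. Vim and Tgfb1 are the filled diamonds, at 0.19 and 0.17, and the mean effects of the other 30 genes have intervals that reach 0.

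Vim encodes vimentin, the intermediate filament protein of mesenchymal cells. In 129 its log2 value ran from 9.61 to 10.01 (median 9.82) in 8 controls and from 9.76 to 10.64 (median 10.13) in 7 HFD livers. B6J controls spanned 7.62 to 8.02 (median 7.76), and B6J livers on HFD spanned 7.35 to 8.16 (median 7.98). The groups overlapped in both strains, with 4 of 7 HFD livers of 129 and 3 of 7 of B6J above every control. In B6N the controls spanned 7.48 to 7.93 (median 7.73) and the HFD livers 7.68 to 8.22 (median 7.91), and 4 of 8 HFD livers lay above all controls. In C3H the 18 controls spanned 5.22 to 6.21 (median 5.73) and enclosed all 8 HFD livers, which spanned 5.53 to 5.91 (median 5.74). The mean effect was 0.19 ± 0.05 (SE, 72 arrays), a 1.14-fold higher level (95% interval 1.06 to 1.23; adjusted p = 0.022). By strain the limma difference was 0.40 ± 0.11 for 129 (adjusted p = 0.078), 0.11 ± 0.11 for B6J (adjusted p = 1), 0.24 ± 0.11 for B6N (adjusted p = 0.71) and 0.02 ± 0.09 for C3H (adjusted p = 0.99). The call ended when each array was centred on its median (0.19, adjusted p = 0.054) and in the fit with the replicate number as a block (0.20, adjusted p = 0.095).

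Tgfb1 encodes the cytokine that drives collagen production by stellate cells. In 129 the controls spanned 7.30 to 7.63 (median 7.46) and the HFD livers 7.50 to 8.33 (median 7.69). In B6J the controls spanned 5.31 to 5.56 (median 5.41) and the HFD livers 5.43 to 5.88 (median 5.53). Here 4 of 7 HFD livers of 129 and 3 of 7 of B6J lay above every control of their strain. In B6N the controls spanned 4.88 to 5.69 (median 5.21) and enclosed the HFD livers, at 5.13 to 5.53 (median 5.35). In C3H the controls spanned 3.30 to 4.05 (median 3.78) and the HFD livers 3.73 to 4.13 (median 3.86), of which 2 of 8 were above all controls. The mean effect was 0.17 ± 0.05 (SE, 72 arrays), a 1.13-fold higher level (95% interval 1.05 to 1.20; adjusted p = 0.029). The strain values were 0.31 ± 0.10 for 129 (adjusted p = 0.22), 0.15 ± 0.10 for B6J (adjusted p = 1), 0.07 ± 0.10 for B6N (adjusted p = 1) and 0.16 ± 0.08 for C3H (adjusted p = 0.65). This call ended under more settings than that of Vim: with all arrays quantile-normalised together (adjusted p = 0.060), centred on their medians (0.074) or weighted by quality (0.098). It also ended without HFD replicate 1 of 129 (0.054), HFD replicate 6 of 129 (0.063), HFD replicate 5 of B6J (0.056) or control replicate 6 of B6N (0.052), each at a mean effect of 0.15 or 0.16.

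**Figure D2:**
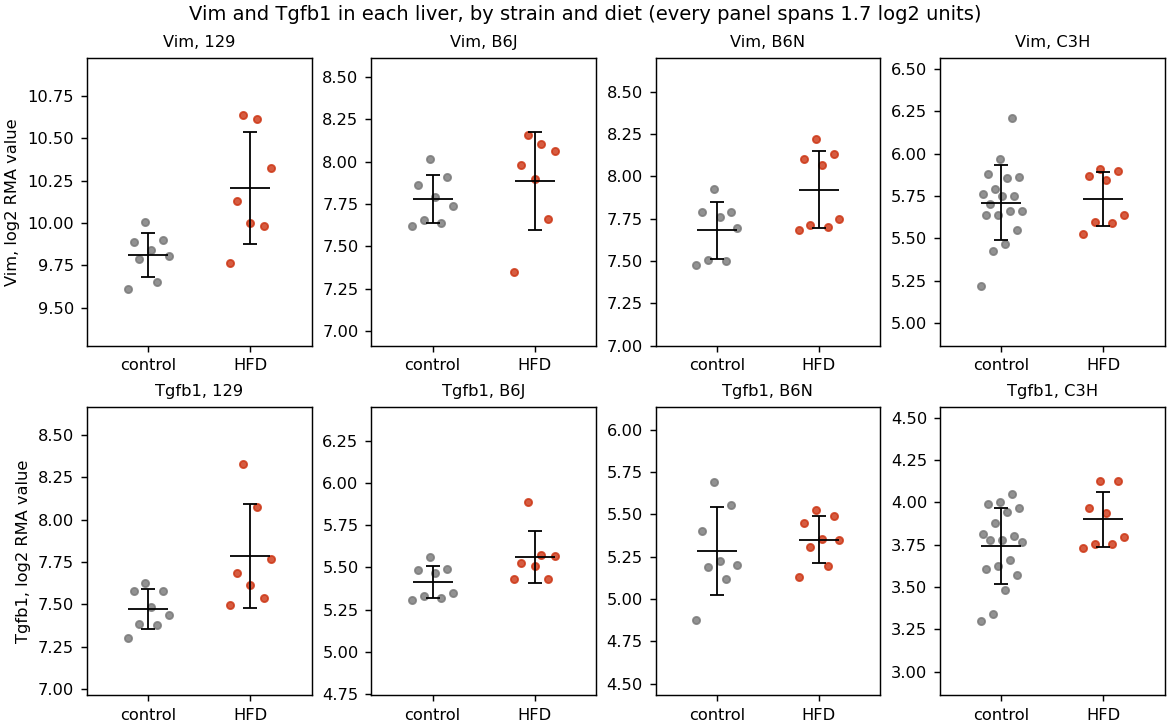
Log2 RMA value (y axis) of Vim (top) and Tgfb1 (bottom) in every liver, for control (grey) and HFD (red) in each strain; black bars are the group mean and SD, and every panel spans the same number of log2 units. The HFD points overlap the controls in every panel, and the upward shift is greatest in 129, at 0.40 for Vim and 0.31 for Tgfb1.

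Macrophage genes were higher on HFD in the same comparison. Of 15 Kupffer cell markers, 7 passed as higher in the mean effect, with a median effect of 0.21; they included Cd5l (0.41 ± 0.08, adjusted p = 0.00018), a secreted macrophage protein, Adgre1 (0.43 ± 0.10, adjusted p = 0.0059), which encodes F4/80, and Clec4f (0.26 ± 0.05, adjusted p = 0.0008), a lectin of Kupffer cells. In 129 the mean log2 value of the 15 markers spanned 8.18 to 8.70 in controls and 8.48 to 9.69 on HFD, a difference of 0.53 (exact permutation test, two-sided, p = 0.0017, adjusted p = 0.037). In B6J the ranges were 7.09 to 7.37 and 7.19 to 7.83, a difference of 0.30 (exact permutation test, p = 0.0068, adjusted p = 0.082). In B6N the markers spanned 7.06 to 7.53 in controls and 7.07 to 7.67 on HFD, and in C3H 4.85 to 5.54 and 4.82 to 5.49, differences of 0.05 and 0.07 (adjusted p = 0.85 for both). Between livers of the same group, Tgfb1 followed the Kupffer markers in 129 (r = 0.83, permutation p = 0.0031, adjusted p = 0.015; rho = 0.73, permutation p = 0.0093; r = 0.62 without the 2 most distant arrays; n = 15). In B6J and B6N the correlation of Tgfb1 with them was weaker (r = 0.32, permutation p = 0.090; rho = 0.31, p = 0.11; n = 31), and in C3H it was negative (r = -0.46, permutation p = 0.018, adjusted p = 0.062; rho = -0.47, p = 0.017; n = 26). For Vim the 3 values of r were 0.46 in 129 (permutation p = 0.22; rho = 0.68, p = 0.030), 0.55 in B6 (p = 0.0079; rho = 0.48, p = 0.018) and 0.51 in C3H (p = 0.0066; rho = 0.56, p = 0.0041), with adjusted p values of 0.33, 0.032 and 0.028 and r of 0.60, 0.42 and 0.42 without the 2 most distant arrays. With endothelial markers, Vim had r = 0.58 in B6 (adjusted permutation p = 0.007), beside 0.40 in 129 and 0.33 in C3H. With smooth muscle markers, Vim had -0.52 in B6 and Tgfb1 0.51 in C3H (adjusted p = 0.025 for both). With portal fibroblast markers, Tgfb1 had -0.55 in B6 and 0.47 in C3H (adjusted p = 0.011 and 0.039). No other correlation of Vim or Tgfb1 with these means or with hepatocyte markers passed. These p-values were adjusted over 240 correlations of 16 genes with 5 marker lists in 3 sets. The part of the macrophage or other marker genes in the Vim and Tgfb1 results was not tested.

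The fibrillar collagens, which form the tensile fibres of scar tissue, did not pass the test in any strain. Their mean effects were 0.03 ± 0.06 for Col1a1 and -0.01 ± 0.06 for Col1a2, the chains of type I collagen, 0.07 ± 0.05 for Col3a1 of type III and -0.05 ± 0.04 for Col5a2 of type V. Col3a1 had the smallest unadjusted p of the 4 in a single strain, in B6N. There it spanned 5.94 to 6.32 (median 6.11) in controls and 6.25 to 6.84 (median 6.29) on HFD, and 3 of 8 HFD livers lay above all controls. The difference was 0.24 ± 0.09 (unadjusted p = 0.012, adjusted p = 0.47), and it ranged from 0.17 to 0.27 when single arrays were left out. Its highest liver, HFD replicate 5 at 6.84, was well above the next at 6.34. The same gene differed by -0.05 for 129, -0.01 for B6J and 0.10 for C3H. Pancreatic acinar markers, 19 genes of digestive enzymes and their kin, also differed in B6N: their mean log2 value spanned 4.65 to 6.06 in controls and 4.78 to 7.41 on HFD (difference 1.05, exact permutation p = 0.014, adjusted p = 0.13). With that mean as a covariate the Col3a1 difference was 0.20 (adjusted p = 1).

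Col4a1 and Col4a2 encode the network-forming chains of the basement membrane. They are neighbours on chromosome 8 whose annotated spans overlap by 85 bases. Their mean effects were -0.09 ± 0.05 and -0.03 ± 0.05, and the strain values of Col4a1 ran from -0.16 in 129 to -0.03 in B6N. The chains of collagen VI, a microfibril-forming collagen, had mean effects of 0.01 (Col6a1), -0.09 (Col6a2) and -0.04 (Col6a3), and Col14a1, a collagen that attaches to fibrils, had 0.03. Among these 6 collagens the widest spread between strains was that of Col6a2, from -0.23 ± 0.15 in B6J and -0.22 ± 0.15 in B6N to 0.12 ± 0.15 in 129, none of them past the test.

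The small leucine-rich proteoglycans decorin (Dcn), lumican (Lum) and biglycan (Bgn) bind collagen fibrils. Their mean effects were -0.01 ± 0.07, -0.06 ± 0.09 and 0.06 ± 0.05. The lysyl oxidase genes Lox and Loxl1, whose enzymes cross-link collagen and elastin, had mean effects of 0.02 ± 0.04 and -0.01 ± 0.05, with strain values from -0.05 to 0.06. Lox was below the array median in every set and Loxl1 in C3H, as given above, while Loxl1 was near it in 129 (0.05) and B6 (0.23).

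Among the matrix glycoproteins, Fn1, which encodes fibronectin, had a mean effect of 0.17 ± 0.15, which did not pass (adjusted p = 0.83). Its strain values ran from 0.01 in B6J to 0.46 ± 0.31 in B6N. Sparc, a collagen-binding matricellular protein, had its largest difference in B6J. There the controls spanned 7.91 to 8.34 (median 8.17) and the HFD livers 7.70 to 8.29 (median 7.89), with 4 of 7 HFD livers below all controls. That difference was -0.19 ± 0.09 (unadjusted p = 0.051, adjusted p = 0.86), while it was -0.01 for 129, 0.02 for B6N and 0.00 for C3H. The mean effects of Thbs1, an activator of latent TGF-beta, of Ecm1, a secreted glycoprotein, and of Reln, a secreted glycoprotein made in liver by stellate cells, were 0.04, 0.04 and 0.08.

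Of the matrix-degrading side, the gelatinase gene Mmp2 had a mean effect of 0.10 ± 0.05 (unadjusted p = 0.070, adjusted p = 0.52), with strain values between 0.04 and 0.12. The inhibitor Timp1, which is induced in injured liver, had -0.09 ± 0.05 (unadjusted p = 0.057, adjusted p = 0.48), and Timp2 had -0.01 ± 0.06. Timp1 was below the array medians, so a low level of it could not be measured well in either diet.

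Of the contractile and cytoskeletal genes, Vim is described above, and Acta2, Tagln and Des did not pass in any strain. Acta2, the smooth muscle actin of myofibroblasts, gave 0.24 ± 0.18 for 129, -0.34 ± 0.18 for B6J, 0.07 ± 0.17 for B6N and -0.03 ± 0.15 for C3H. Tagln encodes the actin-binding protein transgelin. In B6J it spanned 5.21 to 5.95 (median 5.62) in controls and 5.04 to 5.64 (median 5.34) on HFD. All but 1 of the 7 HFD livers lay within the control range, and the difference was -0.23 ± 0.11 (unadjusted p = 0.051, adjusted p = 0.86). Tagln differed by 0.10 for 129, by -0.02 for B6N and by 0.12 for C3H. Des, the desmin filament gene of quiescent rodent stellate cells, ran from -0.11 in B6J to 0.23 in 129.

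The growth factor and receptor genes other than Tgfb1 did not pass. Hgf, the hepatocyte mitogen that stellate cells release, gave 0.32 ± 0.20 for 129, 0.30 ± 0.20 for B6J, 0.02 ± 0.20 for B6N and -0.08 ± 0.17 for C3H. Pdgfra and Pdgfrb, the receptors for PDGF, each had a mean effect of -0.06, with standard errors of 0.07 and 0.05. Lrat ran from -0.23 ± 0.21 in B6N to 0.35 ± 0.21 in 129, with a mean effect of 0.04 ± 0.10.

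The test for any difference in diet effect among the 4 strains, a moderated F test, called 0 of 32 members (0 at an unadjusted p under 0.05 by limma), with 0.125% of all genes called. Hence the range of Acta2, Hgf, Lrat or Vim values across strains given above was not shown to be a strain difference. No member was called in any of the 6 pairwise differences of diet effects either. At an unadjusted p under 0.05, these counted 2 members for B6J against 129 (Acta2, -0.58, and Tagln, -0.33), 1 for B6N against 129 (Col3a1, 0.29), 1 for C3H against 129 (Vim, -0.37), 1 for C3H against B6J (Tagln, 0.35), 0 for C3H against B6N and 0 for B6N against B6J. The shares of all genes at that threshold were 2.93%, 3.93%, 5.10%, 4.30%, 3.77% and 3.05% in the same order. The percentages of all genes called were 0.00502%, 0.0401%, 0.0602%, 0.0401%, 0.0451% and 0% in that order.

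B6N and B6J are closely related substrains, and their arrays share a scale, so levels were compared directly. In controls limma called 0 of 32 members (3 at an unadjusted p under 0.05), with 0.0351% of all genes called. On HFD it called 0 (3 at an unadjusted p under 0.05), with 0.191% called. Those 3 are 9.38% of the members each time, beside 6.85% of all genes in controls and 6.14% on HFD. Markers of other cells differed too: in controls 16 of 19 acinar markers had an unadjusted p under 0.05 (median -1.80, none above 0), as did 5 of 10 hepatocyte markers (median -0.12, none above 0) and 4 of 16 endothelial markers (median -0.12, 3 above 0), with none called by limma. On HFD the medians were -0.99, -0.07 and -0.01. The 15 Kupffer cell markers had a median of 0.08 in controls (10 above 0) and -0.21 on HFD (1 above 0). Of these, limma gave 1 an unadjusted p under 0.05 in each comparison and called none. With the acinar mean as covariate, Fn1 in controls was -0.76, Reln -0.39 and Bgn on HFD -0.30. The part of the hepatocyte, endothelial and Kupffer cell genes was not tested. Bgn on HFD had the smallest unadjusted p. It spanned 8.10 to 8.52 (median 8.30) in B6J and 7.70 to 8.23 (median 8.02) in B6N, and 7 of 8 B6N livers lay below all B6J livers. B6N minus B6J was -0.31 ± 0.11 on HFD (unadjusted p = 0.0077, adjusted p = 0.52). In controls, where Bgn spanned 7.94 to 8.28 in B6J and 7.62 to 8.10 in B6N, it was -0.27 ± 0.11 (unadjusted p = 0.016, adjusted p = 0.70). With arrays weighted by quality, Bgn was called on HFD (-0.35, adjusted p = 0.037).

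Fn1 had the largest member difference between the substrains in controls. Control values spanned 10.55 to 11.28 (median 11.12) in B6J and 9.37 to 11.54 (median 10.05) in B6N. Although 6 of 8 B6N livers were below all B6J livers, the highest value was also a B6N liver. The difference was -0.75 ± 0.31 in controls (unadjusted p = 0.019, adjusted p = 0.70) and -0.29 ± 0.32 on HFD (adjusted p = 0.94). Reln had the same ordering in controls, 7.49 to 7.79 (median 7.63) in B6J and 6.55 to 8.01 (median 7.36) in B6N. Its difference was -0.32 ± 0.17 in controls (unadjusted p = 0.056, adjusted p = 0.73) and -0.32 ± 0.17 on HFD (adjusted p = 0.82). For Pdgfra on HFD the range was 5.54 to 5.90 (median 5.82) in B6J and 5.19 to 5.86 (median 5.42) in B6N, a difference of -0.29 ± 0.15 (unadjusted p = 0.048, adjusted p = 0.81). Tgfb1 on HFD, whose values by group are given above, was -0.21 ± 0.10 (unadjusted p = 0.044, adjusted p = 0.80), with 5 of 8 B6N livers below all B6J livers. Col5a2 in controls was the member with a nominal difference in the other direction. It spanned 4.18 to 4.48 (median 4.41) in B6J and 4.32 to 4.88 (median 4.67) in B6N, with 5 of 8 B6N livers above all B6J livers and a difference of 0.23 ± 0.09 (unadjusted p = 0.0098, adjusted p = 0.70), at a level near the array median.

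Other genes of the same processes were counted from lists that hold no member. Over all genes, limma called 3.16% in the mean effect, and 11.1% had an unadjusted p under 0.05. A single called gene in a list of 22 to 44 genes lies near that share. None of 20 other collagen genes was called by limma in the mean effect (3 at an unadjusted p under 0.05; median -0.08). None of 29 genes of the TGF-beta pathway was called (4 at an unadjusted p under 0.05; median 0.04), nor any of 10 genes of PDGF and HGF signalling (2 at an unadjusted p under 0.05; median 0.02). Among 23 genes of collagen processing, Pcolce2, an enhancer of procollagen cleavage, rose (0.22 ± 0.06, adjusted p = 0.0093) and Ppib, a prolyl isomerase of the endoplasmic reticulum, fell (-0.18 ± 0.05, adjusted p = 0.044). Pcolce2 was also called in 129 alone (0.58 ± 0.12, adjusted p = 0.0034). Among 44 matrix glycoproteins and proteoglycans, Lamb3, a laminin chain, was the gene called, at 0.25 ± 0.05 (adjusted p = 0.0014), with 0.56 ± 0.11 in B6N and 0.37 ± 0.09 in C3H. Among 28 proteases and inhibitors the metalloproteinase Mmp19 fell (-0.22 ± 0.07, adjusted p = 0.042).

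Cd44, the hyaluronan receptor, was the called gene among 22 matrix receptors. It rose by 0.32 ± 0.05 in the mean effect (adjusted p = 2.2e-05) and by 0.70 ± 0.11 in 129 (adjusted p = 0.00014), and its diet effect differed between strains (F test, adjusted p = 0.043). Of 13 genes of retinoid handling, Pnpla3, a lipase that acts on retinyl esters and triglyceride, and Bco1, which splits beta-carotene, rose in the mean effect (0.25 ± 0.08, adjusted p = 0.045, and 0.17 ± 0.05, adjusted p = 0.038). In C3H, Pnpla3 rose by 0.71 ± 0.13 (adjusted p = 0.00037) and Hsd17b13, a lipid droplet dehydrogenase, by 0.31 ± 0.07 (adjusted p = 0.014).

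Of 21 further stellate cell markers that are not members, 2 were called in the mean effect, Steap4 (0.34 ± 0.05, adjusted p = 6.7e-06), a metalloreductase, and Bco1, and 17 of 21 were above 0 with a median of 0.04. Within single strains, Steap4 was the called marker of this list, in B6N (0.47 ± 0.11, limma adjusted p = 0.014). The mean log2 value of these 21 markers spanned 7.85 to 8.02 in 129 controls and 7.97 to 8.17 on HFD, a difference of 0.12 (exact permutation test, two-sided, p = 0.0023, adjusted p = 0.037). In B6J it spanned 5.78 to 5.93 and 5.88 to 6.05, also a difference of 0.12 (exact permutation test, p = 0.0023, adjusted p = 0.037). The groups overlapped in both strains. The differences were 0.03 in B6N and -0.01 in C3H (adjusted p = 0.85 for both). Marker means of portal fibroblasts, smooth muscle and mesothelium, the other matrix-producing cells of the organ, differed by -0.04 to 0.11 between diets over the 4 strains, with adjusted p values of 0.71 or more. Hepatocyte markers were lower in B6J and C3H by unadjusted p alone. The differences were -0.10 in B6J (exact permutation test, p = 0.016, adjusted p = 0.13) and -0.15 in C3H (permutation test, p = 0.027, adjusted p = 0.19). They were -0.03 in 129 and -0.04 in B6N. In the mean effect the hepatocyte enzymes Cps1 (-0.31, adjusted p = 0.00027) and Tat (-0.25, adjusted p = 0.047) fell, 2 of 10 hepatocyte markers. Lyve1, of sinusoidal endothelium, rose (0.22, adjusted p = 0.018; 1 of 16 endothelial markers), as did Ptprc, the leukocyte antigen CD45 (0.33, adjusted p = 0.0054; 1 of 11 lymphocyte markers). By strain, Cps1 was called in C3H (-0.48, limma adjusted p = 0.0049). In the mean effect the endothelial list had a median of -0.03, with 5 of 16 markers above 0. The hepatocyte list had -0.05 (2 of 10 above 0) and the lymphocyte list 0.05 (7 of 11 above 0). The part of these marker genes in the stellate marker difference was not tested.

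Livers of the same strain and diet differed from each other by more than the diets differed for many members. The residual SD of the members ranged from 0.0947 to 0.461 in 129, 0.149 to 0.603 in B6 and 0.156 to 0.805 in C3H, with medians of 0.18, 0.228 and 0.265 beside 0.17, 0.196 and 0.229 over all genes. Fn1 varied most in both B6 (SD 0.603) and C3H (SD 0.805), where 99.5% and 99.7% of genes had a smaller SD. In 129 the widest was Acta2 (SD 0.461).

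This variation was shared by groups of members. Correlations were computed on deviations from the group mean within each of the 3 sets of arrays. Where a pair of members is given without 2 arrays, these are the 2 farthest from the median in 1 gene of the pair. They differ between pairs, and an array that is extreme in the other gene alone stays in. Of the 496 pairs of members, 19 had r above 0.5 in all 3 sets, a threshold set after the values were seen. With p-values adjusted over 1488 tests, 170 correlations were called, of which 116 were positive. The share of all gene pairs that meets either criterion was not computed, so these counts do not set the members apart from other genes. A share over all gene pairs is at hand for r above 0.7 within a set. In B6, 3.23% of member pairs had r above 0.7 beside 0.912% of all gene pairs, in C3H 2.22% beside 0.664%, and in 129 7.66% beside 5.01%. All pairs in a set share the same arrays, and the pairs are not independent of each other.

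Dcn and Hgf were correlated in every set. Their r was 0.78 in 129 (n = 15, permutation p = 0.0013; rho = 0.76, p = 0.0025), 0.90 in B6 (n = 31, permutation p = 1e-05; rho = 0.89, p = 1e-05) and 0.88 in C3H (n = 26, permutation p = 1e-05; rho = 0.88, p = 1e-05), where 1e-05 is the smallest p these permutations can give. The adjusted p values were 0.019, 0.00065 and 0.00065. Without the 2 most distant arrays r was 0.68, 0.87 and 0.83. Lum, whose gene lies 47.3 kb from Dcn on chromosome 10, joined them: r with Dcn was 0.82, 0.81 and 0.54 (permutation p = 0.0019, 1e-05 and 0.0032; rho = 0.69, 0.85 and 0.61), and r with Hgf was 0.87, 0.77 and 0.54 (permutation p = 6e-05, 1e-05 and 0.0039; rho = 0.86, 0.77 and 0.63). Without 2 arrays these became 0.54, 0.75 and 0.44 for Dcn and 0.81, 0.81 and 0.65 for Hgf. Lrat correlated with Hgf at 0.52, 0.60 and 0.69 (permutation p = 0.059, 0.001 and 0.00045; rho = 0.44, 0.62 and 0.53), and at 0.43, 0.66 and 0.55 without 2 arrays. With the leading residual component of each set removed, Dcn and Hgf kept an r of 0.75, 0.74 and 0.69, while Dcn and Lum dropped to 0.26 in C3H. Lum and Hgf then had r = 0.88, 0.53 and 0.29, and Lrat and Hgf had 0.53, 0.26 and 0.52. The ties of Lum and Lrat were thus weaker than that of Dcn and Hgf in at least 1 set.

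A second group joined Fn1, Reln, Ecm1, Bgn and Pdgfrb, with Col14a1 tied to Bgn, Fn1 and Reln. In B6 and C3H, Col14a1 had r = 0.58 and 0.71 with Bgn, 0.62 and 0.57 with Fn1, and 0.78 and 0.78 with Reln (adjusted p = 0.031 or less). In 129 these were 0.66, 0.58 and 0.53 (adjusted p = 0.11, 0.19 and 0.22), and 0.18, 0.15 and 0.03 without 2 arrays. The pair Fn1 and Reln had r = 0.82 in 129 (n = 15, permutation p = 0.00089; rho = 0.76, p = 0.0013), 0.86 in B6 (n = 31, permutation p = 1e-05; rho = 0.85, p = 1e-05) and 0.82 in C3H (n = 26, permutation p = 1e-05; rho = 0.80, p = 1e-05). Without the 2 most distant arrays it was 0.58, 0.83 and 0.76. With the leading residual component removed it was 0.35, 0.87 and 0.79; in 129 that removal also took Ecm1 and Reln from 0.87 to 0.36, Reln and Pdgfrb from 0.84 to 0.31, and Bgn and Reln from 0.66 to -0.01. Bgn and Reln, whose upstream windows are printed above, had r = 0.66 in 129 (permutation p = 0.051; rho = 0.49, p = 0.067), 0.75 in B6 (permutation p = 3e-05; rho = 0.75, p = 5e-05) and 0.83 in C3H (permutation p = 1e-05; rho = 0.83, p = 1e-05). The 129 value rested on 2 arrays, since r was -0.08 without them, while the other sets kept 0.69 and 0.77. Ecm1 and Pdgfrb had r = 0.94, 0.60 and 0.74 (permutation p = 6e-05, 0.0017 and 8e-05; rho = 0.87, 0.59 and 0.73), and 0.80, 0.56 and 0.72 without 2 arrays.

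Markers of other cells varied with the second group. Reln correlated with the mean of 16 endothelial markers at r = 0.87 in 129 (permutation p = 0.003; rho = 0.72, p = 0.0039), 0.75 in B6 (permutation p = 7e-05; rho = 0.70, p = 0.0002) and 0.74 in C3H (permutation p = 9e-05; rho = 0.77, p = 3e-05), with adjusted p values of 0.015, 0.001 and 0.0012 and r of 0.68, 0.65 and 0.74 without 2 arrays. Fn1 correlated with the mean of 10 hepatocyte markers at r = 0.67 in 129 (permutation p = 0.024; rho = 0.50, p = 0.064), 0.62 in B6 (permutation p = 0.0013; rho = 0.53, p = 0.0055) and 0.68 in C3H (permutation p = 0.00011; rho = 0.70, p = 0.00013), or 0.54, 0.54 and 0.70 without 2 arrays, with adjusted p values of 0.070, 0.0083 and 0.0013. Each of these 2 genes also varied with the other list. Fn1 had r = 0.70, 0.55 and 0.56 with the endothelial mean (adjusted permutation p = 0.049, 0.025 and 0.013), or 0.27, 0.50 and 0.53 without 2 arrays. Reln had r = 0.43, 0.59 and 0.76 with the hepatocyte mean (adjusted permutation p = 0.21, 0.013 and 0.0013), or 0.39, 0.52 and 0.79 without 2 arrays. Dcn and Hgf varied with macrophage genes in B6 and C3H: r of Dcn with the Kupffer marker mean was 0.52 in 129 (permutation p = 0.026; rho = 0.70, p = 0.0082), 0.63 in B6 (permutation p = 0.00016; rho = 0.70, p = 4e-05) and 0.75 in C3H (permutation p = 3e-05; rho = 0.69, p = 0.00026), or 0.53, 0.56 and 0.66 without 2 arrays, with adjusted p values of 0.074, 0.0018 and 0.0009. For Hgf r was 0.53, 0.51 and 0.76 (permutation p = 0.060, 0.0075 and 4e-05, adjusted p = 0.13, 0.031 and 0.00092; rho = 0.51, 0.52 and 0.80; r = 0.37, 0.40 and 0.66 without 2 arrays). Lum passed in B6 alone (r = 0.50, 0.53 and 0.34, adjusted p = 0.11, 0.0032 and 0.17; 0.15 in C3H without 2 arrays), and Lrat in no set (adjusted p = 0.21, 0.099 and 0.062). Of the other group, Col14a1 passed with the Kupffer markers in C3H (r = 0.53, permutation p = 0.0083, adjusted p = 0.032; rho = 0.41; 0.39 without 2 arrays). Against the mean of 9 smooth muscle markers, Dcn ran the other way in B6 (r = -0.74, permutation p = 1e-05; rho = -0.75; -0.68 without 2 arrays) and C3H (r = -0.64, permutation p = 0.0016; rho = -0.64; -0.55 without 2 arrays), with -0.19 in 129 (permutation p = 0.50). With the mean of 9 portal fibroblast markers, Dcn had r = 0.24 in 129, -0.68 in B6 and -0.50 in C3H. For Hgf these were 0.05, -0.72 and -0.45, for Lum -0.05, -0.62 and -0.21, and for Lrat -0.31, -0.62 and 0.03. In B6 the adjusted permutation p was 0.0032 or less for each of these genes, and none of them passed in 129 or C3H. Whether cell numbers, RNA quality or sampling site account for these groups of members was not tested.

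**Figure D3:**
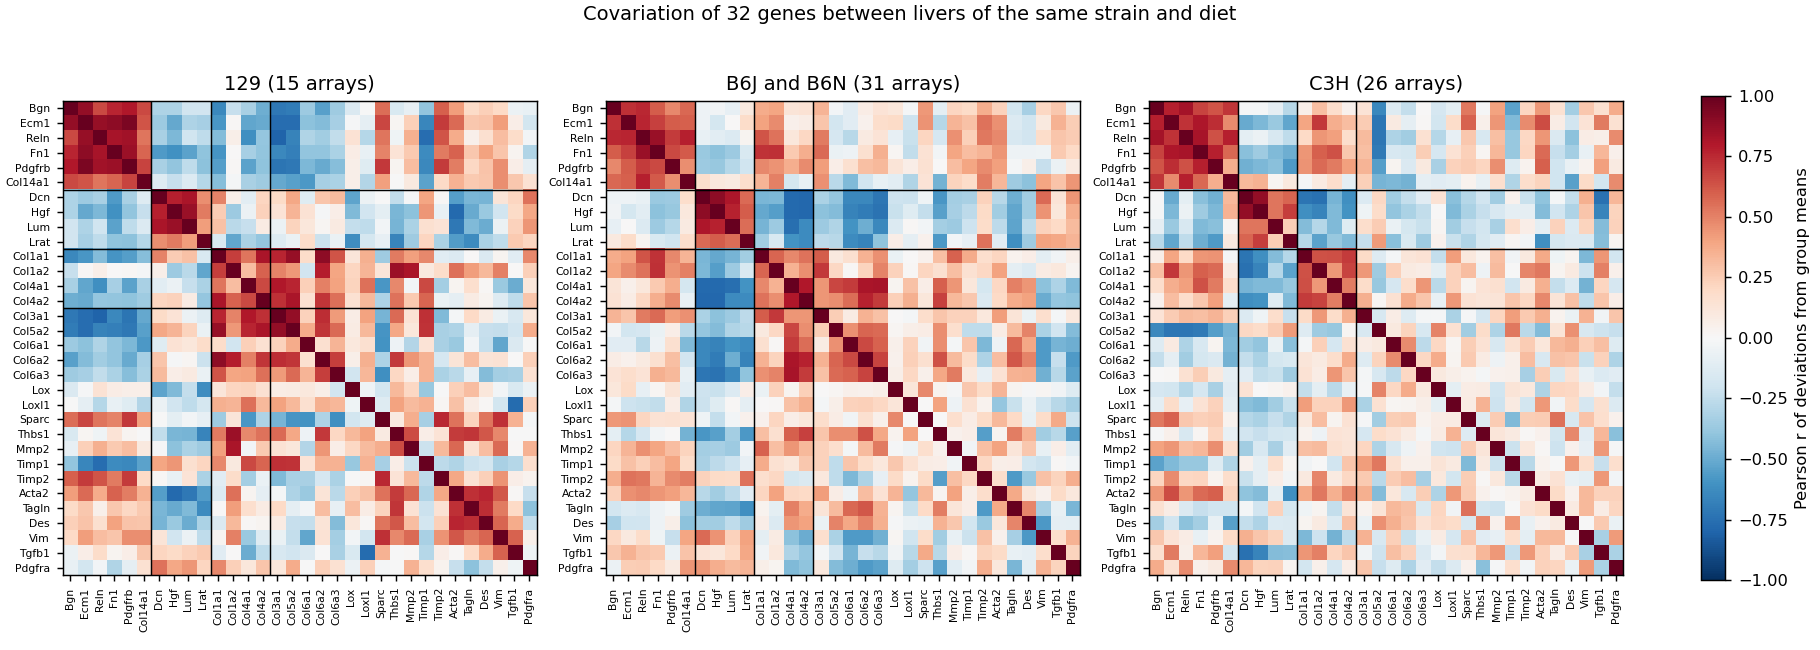
Pearson correlation (colour scale from -1 to 1) of 32 genes with each other, on deviations of log2 values from the strain and diet group mean, for 15 arrays of 129, 31 of B6J and B6N, and 26 of C3H. Lines frame the group of Bgn, Ecm1, Reln, Fn1, Pdgfrb and Col14a1, that of Dcn, Hgf, Lum and Lrat, and that of Col1a1, Col1a2, Col4a1 and Col4a2, and the first 2 frames are red in all 3 panels.

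Of the collagens, Col1a1, Col1a2, Col4a1 and Col4a2 formed a looser group. With the portal fibroblast marker mean, Col1a1 had r = 0.87 in 129, 0.42 in B6 and 0.46 in C3H. Col1a2 had 0.76, 0.31 and 0.27, Col4a1 0.66, 0.76 and -0.09, and Col4a2 0.81, 0.73 and 0.45. By the adjusted permutation p, Col1a1, Col1a2 and Col4a2 passed in 129, and Col4a1 and Col4a2 in B6. With the smooth muscle mean, Col1a2 passed in 129, Col4a1 and Col4a2 in B6, and Col1a1, Col1a2 and Col4a2 in C3H, with r above 0. Other lists passed too. With the Kupffer mean, r was -0.59 for Col4a1 and -0.58 for Col4a2 in B6 (adjusted permutation p = 0.0068 and 0.01). In C3H it was -0.59 for Col1a1 and -0.49 for Col4a1 (adjusted p = 0.011 and 0.036). With the hepatocyte mean, Col4a1 and Col4a2 had 0.59 and 0.58 in B6 (adjusted p = 0.007 and 0.0083). With the endothelial mean, Col4a1 had -0.79 in 129 (adjusted p = 0.036). Col1a1 and Col1a2, whose products assemble into the same trimer, had r = 0.69 in 129 (permutation p = 0.0006; rho = 0.73, p = 0.0035), 0.58 in B6 (permutation p = 0.0021; rho = 0.51, p = 0.0068) and 0.64 in C3H (permutation p = 0.0014; rho = 0.65, p = 0.00084). Without 2 arrays r was 0.79, 0.55 and 0.50. The C3H value was -0.07 once the leading residual component was removed. Col4a1 and Col4a2 had r = 0.66, 0.80 and 0.51 (permutation p = 0.0037, 1e-05 and 0.0053; rho = 0.61, 0.80 and 0.46), and 0.29, 0.46 and 0.30 without that component. Col1a1 and Col3a1 had r = 0.76, 0.61 and 0.19 (permutation p = 0.037, 0.00085 and 0.35), or 0.31, 0.58 and 0.22 without 2 arrays. Col6a1 and Col6a2 had r = 0.16, 0.66 and 0.48 (permutation p = 0.61, 9e-05 and 0.018), or 0.11, 0.56 and 0.13 without 2 arrays. Without the leading component the B6 value of Col6a1 and Col6a2 was 0.05. By the p-values adjusted over 1488 tests, both pairs passed in B6 alone. Acta2 and Tagln, both genes of the contractile apparatus, had r = 0.73 in 129 (permutation p = 0.0024; rho = 0.67, p = 0.011), 0.38 in B6 (permutation p = 0.043; rho = 0.44, p = 0.018) and 0.19 in C3H (permutation p = 0.34; rho = 0.21, p = 0.30). Pdgfrb and Des, both used as stellate cell markers, showed no correlation past the test in any set, with r of 0.28, 0.06 and -0.07 (permutation p = 0.30, 0.79 and 0.73; rho = 0.35, 0.12 and -0.17). Timp1 and its inducer Tgfb1 had r of -0.29, 0.01 and -0.23 (permutation p = 0.26, 0.97 and 0.28; rho = -0.34, -0.09 and -0.03).

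**Figure D4:**
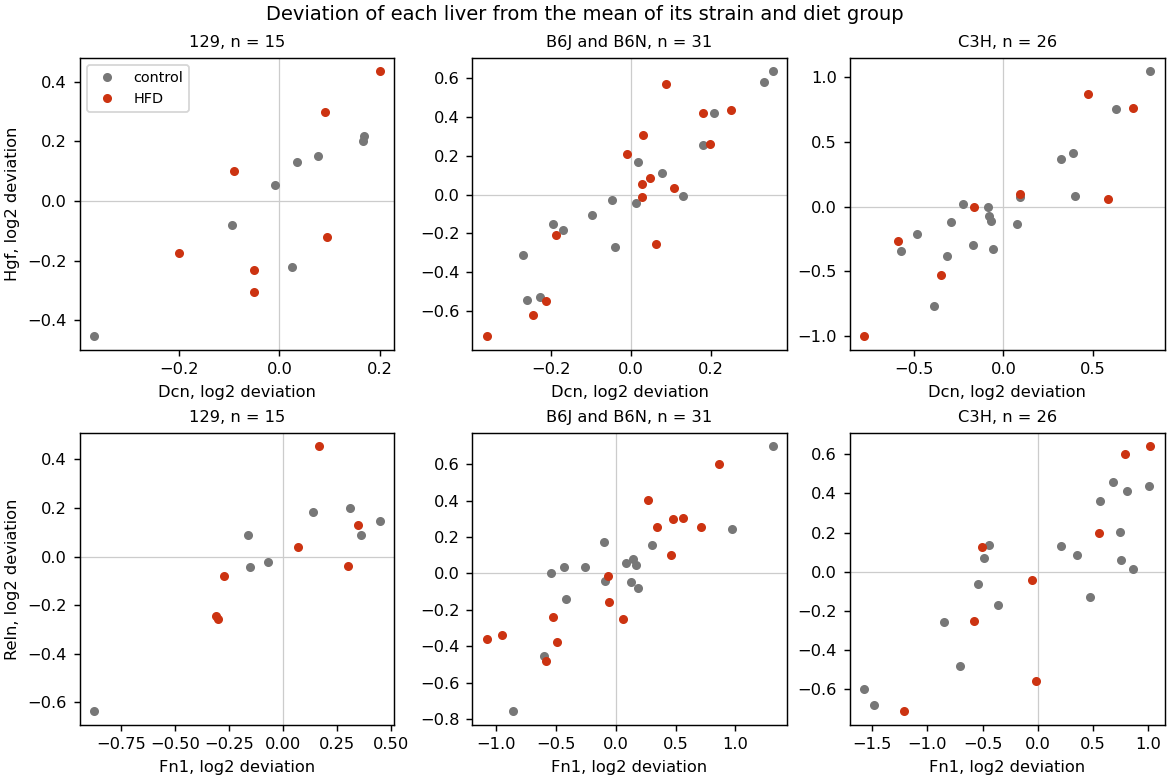
Deviation of each liver's log2 value from the mean of its strain and diet group, for Dcn against Hgf (top) and Fn1 against Reln (bottom), with controls in grey and HFD livers in red, in the 3 sets of arrays. Over both diets together r runs from 0.78 to 0.90 for Dcn and Hgf and from 0.82 to 0.86 for Fn1 and Reln; the diets were not compared.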

How the data were processed

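Expression was measured in 72 mouse livers on Affymetrix Mouse Gene ST arrays. The authors deposited log2 values per probe set. Their notes on processing name RMA and version 1.1 of Expression Console from Affymetrix; background subtraction in RMA leaves folds of dim genes compressed. Of 35556 probe sets, 21789 carried 1 gene symbol. Where a gene had several, the brightest on average was used. limma 3.58.1 (R 4.3.3) was fitted to all 72 arrays with 1 mean for each of 8 groups (64 residual degrees of freedom), with Benjamini-Hochberg adjustment over 19938 genes and a threshold of 0.05. Tests are two-sided. The fit was tested on simulated data. Of simulated 1.5-fold changes, 84% were recovered for 129, 83% for B6J, 84% for B6N and 93% for C3H. False calls were 3.7%, 6.19%, 2.14% and 5.88% of all calls in the same order. The simulated noise was independent between genes, with 1 SD per gene over all groups. It left out the spread differences between sets and the variation that genes share, so these shares do not measure recovery in each real set. Correlations used 100000 permutations within groups (Python 3.11.15, scipy 1.17.1). The number of arrays limits the precision.

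All 33 members are named. Values by group are given for members called in a strain effect, the mean effect, the F test or B6N against B6J, and for the 8 others with the smallest unadjusted p in those comparisons, which leave out pairwise differences of diet effects, and pathway genes are named where called, at most 5 a list. The members and lists were chosen with earlier results of these data known. Replicate numbers were checked for pairing by correlating deviations of same-numbered arrays: every pair was above 0.1 only in B6N (8 of 8, from 0.101 to 0.462), and the labels do not say what a number shares. The Vim value with the replicate block was 0.20 (adjusted p = 0.095) and that of Tgfb1 was 0.20 (adjusted p = 0.017). Alternatives covered array scaling, weights, filters, probe set choice, covariates and leaving out arrays.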

Additional observations from a re-analysis of the deposited data

Results flagged for a closer look

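Within groups of 7 or 8 livers, 1 member's highest or lowest value stood apart from the others in 23 of 224 tests (10.3%), where chance flags about 1 in 20 groups. Of these, 12 were control replicate 6 of 129, the array that also led the residual variation of its set. It was the highest 129 control for Col1a1 (8.07, next 7.74), Col1a2 (7.96, next 7.74), Col3a1 (8.02, next 7.44), Col5a2 (6.61, next 6.13), Col4a1 (7.78, next 7.50) and Col6a2 (7.39, next 6.98). It was the lowest for Bgn (10.29, next 10.87), Fn1 (11.67, next 12.38), Sparc (10.49, next 10.69), Ecm1 (9.74, next 10.69), Reln (8.57, next 9.16) and Pdgfrb (7.50, next 8.05). The first 6 are 6 of the 10 collagen members; Col4a2, Col6a1, Col6a3 and Col14a1 of that liver did not stand apart. The members called did not change when this array and C3H HFD replicate 6 were left out together, a setting added after seeing the data.

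Other livers that stood apart were 129 control replicate 5 for Lum (lowest, 6.25) and Des (highest, 8.07), 129 HFD replicate 2 for Col6a3 (highest, 6.88) and 129 HFD replicate 1 for Timp1 (lowest, 4.59). In B6J these were HFD replicate 6 for Dcn (lowest, 10.08), HFD replicate 5 for Lox (highest, 3.56) and Tgfb1 (highest, 5.88), and control replicate 6 for Thbs1 (highest, 4.64). In B6N they were HFD replicate 5 for Col3a1 (highest, 6.84) and HFD replicate 2 for Col5a2 (lowest, 4.05). In C3H it was HFD replicate 6 for Col4a1 (lowest, 4.69).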

How the results depend on the processing

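The mean diet effect called 2 members, and 1 with all arrays quantile-normalised together (Vim), 0 with arrays centred on their medians, 1 with array weights (Vim) and 1 with the replicate block (Tgfb1); leaving out single arrays gave 1 to 2. In 129 the count was 0, but 2 with array weights (Vim and Pdgfrb), 1 with the leading residual component as covariate (Vim) and 0 to 1 without single arrays (Vim, without HFD replicate 2 or HFD replicate 4). B6N minus B6J on HFD gave 1 with array weights (Bgn). Counts in B6J, B6N, C3H, the F test and control B6N minus B6J stayed at 0 in every setting run. The correlation of Col1a1 with Col1a2 in C3H reversed, from 0.64 to -0.07, with the leading residual component removed, a setting added after seeing the data; the cause was not tested. The replicate block changed no other call. Effects under about 1.5-fold in a strain, and genes near the array median, are the limits of these arrays.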
